A study of Mus musculus with 23 samples.

Results

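The reciprocal hybrids PWDxB6 and B6xPWD were compared gene by gene across the autosomes, on 6 arrays chosen by their titles out of the 23 arrays of the series. The 3 arrays titled (PWDxB6)F1 were set against the 3 arrays titled (B6xPWD)F1, and every difference is PWDxB6 minus B6xPWD in log2 units. Each array held RNA pooled from 4 testes of mice aged 14.5 days, from which the spermatogenic cells had been isolated and hybridised to Affymetrix Mouse Gene 1.0 ST arrays. PWD is an inbred musculus strain and B6 the standard laboratory strain, whose genome is largely domesticus, another subspecies of the house mouse. The mother is named first in a cross by convention. PWDxB6 males therefore had a PWD mother and a B6 father, and B6xPWD males a B6 mother and a PWD father. Neither group carried a transgene or received a treatment, per the labels. The reciprocal cross within a subspecies, BALB/CxB6 (3 arrays) against B6xBALB/C (6 arrays), served as a comparison that shares no array with the hybrids. It runs parallel in that the first group has a B6 father and the second a B6 mother. The remaining arrays were of PWD (3), B6 (3) and PWDxPWK (2), a cross of 2 musculus strains.

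Both hybrids inherit 1 PWD and 1 B6 copy of each autosome. They differ in the X, the Y, the mitochondrial genome, the parent from which each autosomal copy came, and the mother that reared the litter. Males of the PWDxB6 direction are a classical model of hybrid sterility, in which spermatocytes arrest in meiotic prophase, whereas B6xPWD males are fertile or partly so. At the age studied the first wave of spermatogenesis has brought its most advanced germ cells to the pachytene stage, when homologous chromosomes are paired, crossovers mature and a large programme of testis genes, including piRNA factors and parts of the later sperm tail, is switched on.

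The table named 19661 genes. Of these, 14746 had a mean log2 level over all 23 arrays above a dim limit of 5.12, and 14222 of those were autosomal. Array medians ran from 6.13 to 6.28 over the series, and precision is limited by having 3 arrays per hybrid. Germ cell markers were high on the 6 hybrid arrays, with the germ cell helicase gene Ddx4 at 9.98 to 10.6 and the synaptonemal complex gene Sycp3 at 9.62 to 10.4. Markers of somatic cells were high as well in what the labels call spermatogenic populations: the Sertoli cell gene Wt1 stood at 9.95 to 10.5, Sox9 at 8.91 to 9.38 and the smooth muscle actin gene Acta2 of peritubular cells at 11.5 to 11.9. The Leydig cell gene Cyp11a1 (4.63 to 5.75), the endothelial gene Pecam1 (5.46 to 6.23) and the macrophage gene Csf1r (5.12 to 6.00) lay near the dim limit. The spermatid gene Prm1 (5.09 to 5.65) also lay near that limit, and the spermatid gene Tnp1 lay below it (4.14 to 4.57). Levels of different genes on this scale also depend on their probes. Fewer cells of a type and less RNA per cell cannot be told apart in such preparations. Whether each pool drew on different litters is not stated in the labels. The p-values therefore describe variation among these pools, which may be partly technical.

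In limma's test, with p-values adjusted by Benjamini-Hochberg over all 14746 genes, 362 autosomal genes differed at an adjusted p under 0.05, which is 2.55% of those tested. Of these, 174 were higher in PWDxB6 (1.22%) and 188 were lower (1.32%). Counts of called members in the gene lists below are to be read against the share of 2.55%. The falls were the larger: the median difference of the 188 lower genes was -0.65 and 29 of them fell by at least 1 log2 unit, against a median of 0.48 and 3 genes of that size among the 174 higher ones. The genes called higher had a median level of 7.16 over all arrays and those called lower 7.87, against 7.37 for the genes not called. The share called ranged from 1.12% on chromosome 18 to 4.12% on chromosome 12. At an unadjusted p under 0.05 there were 2949 genes (20.7%), 1678 higher (11.8%) and 1271 lower (8.94%). The split depended on centring: with arrays centred on their median over all genes, dim ones included, 92 were higher and 292 lower.

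Single arrays carried many of the calls. Leaving out PWDxB6 replicate 1 gave 56 genes, leaving out replicate 2 gave 567 and leaving out replicate 3 gave 32. Leaving out B6xPWD replicate 1, 2 or 3 gave 403, 32 and 325. Of the 80 called genes that the naming rule selected, 62 lost the call on omission of PWDxB6 replicate 1, 71 on that of PWDxB6 replicate 3 and 70 on that of B6xPWD replicate 2. In the omissions of these 6 arrays none of the 80 changed direction, and 7 kept the call in each: Fgf2, Defb15, Slc16a14, Cyp2d10, 1700006A11Rik, Tctex1d2 and Nnat.

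**Figure D1:**
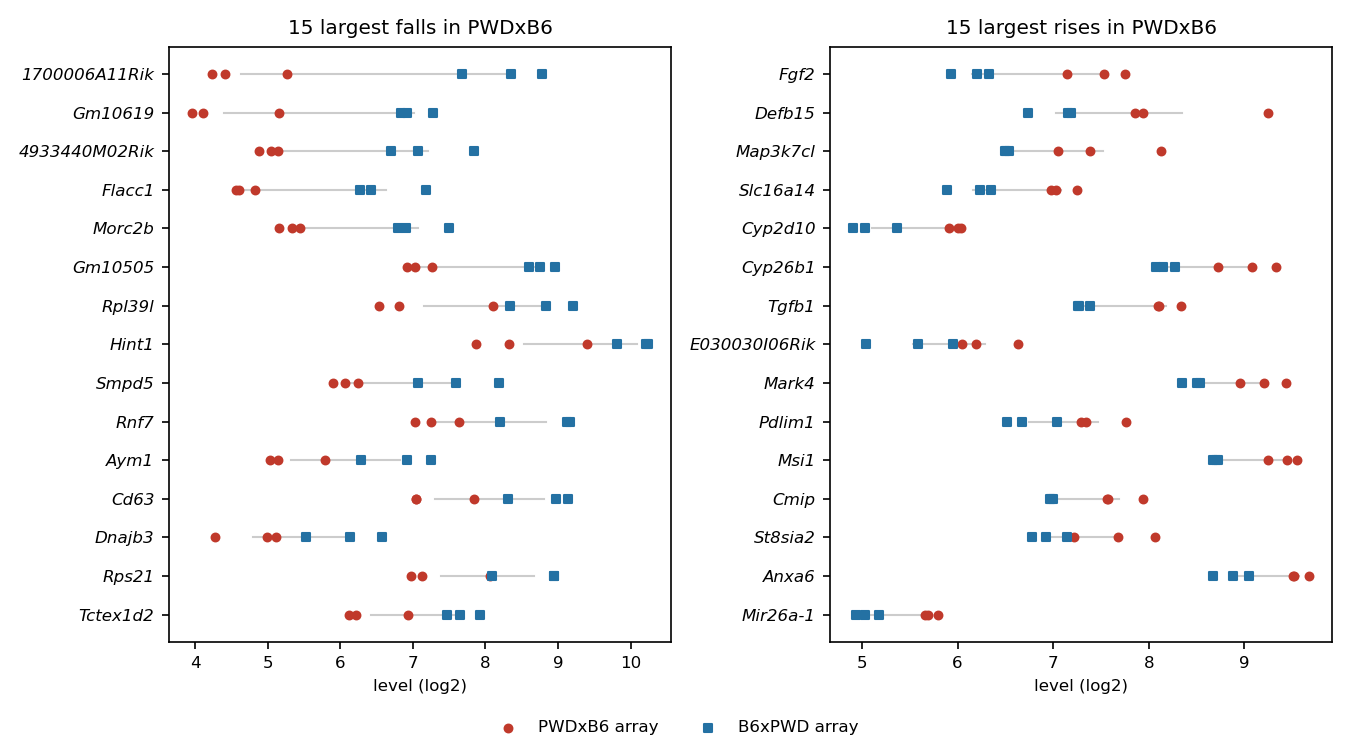
Log2 level on each of the 6 hybrid arrays for the 15 autosomal genes with the largest falls (left) and the 15 with the largest rises (right) in PWDxB6 among genes past the test without overlap of the groups. Red circles are PWDxB6 arrays, blue squares B6xPWD arrays and grey lines join the group means; 1700006A11Rik is lowest in PWDxB6 relative to B6xPWD, by 3.63, and Fgf2 leads the rises with 1.32.

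The largest falls were in 1700006A11Rik, Gm10619 and 4933440M02Rik, none of which has a well known role. 1700006A11Rik stood at 4.41, 5.27 and 4.23 in PWDxB6 replicates 1 to 3 and at 8.35, 8.78 and 7.68 in B6xPWD replicates 1 to 3. All 3 PWDxB6 arrays lay more than 2 log2 units below every B6xPWD array, and the mean fell from 8.27 ± 0.55 to 4.64 ± 0.56 (SD, n = 3 each), a difference of -3.63 (SE 0.666, limma adjusted p = 0.00614) or 12.4-fold. Gm10619, a predicted gene, stood at 5.16, 4.10 and 3.96 against 6.92, 7.28 and 6.83 (difference -2.61, SE 0.613, limma adjusted p = 0.0248). Flacc1, named for a flagellum-associated coiled-coil protein, fell by 1.96 (limma adjusted p = 0.0193), from 6.42, 7.19 and 6.27 in B6xPWD to 4.60, 4.56 and 4.83. Gm10505 fell by 1.70 (limma adjusted p = 0.0282), Smpd5, a sphingomyelinase gene, fell by 1.55 (limma adjusted p = 0.0465) and Aym1 fell too (-1.50, limma adjusted p = 0.0209). Dnajb3, a DnaJ-type co-chaperone gene, fell by 1.28 (limma adjusted p = 0.0439) and Tctex1d2, a dynein light chain gene, by 1.26 (limma adjusted p = 0.00464). Morc2b, a member of the MORC ATPase family, stood at 5.34, 5.45 and 5.16 in PWDxB6 and 6.91, 7.50 and 6.80 in B6xPWD, and fell by 1.76 (limma adjusted p = 0.00973) while the other 3 autosomal members of its family tested did not pass. The group means of 1700006A11Rik, Gm10619, 4933440M02Rik, Flacc1 and Dnajb3 in PWDxB6 lay below the dim limit, so the sizes of these differences are uncertain. Without B6xPWD replicate 2, adjusted p was 0.0479 for 1700006A11Rik, 0.115 for Flacc1, 0.123 for Gm10505, 0.210 for Smpd5, 0.127 for Aym1, 0.203 for Dnajb3, 0.0432 for Tctex1d2 and 0.0737 for Morc2b, and it was 0.116 for Gm10619 without PWDxB6 replicate 3.

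4933440M02Rik also fell, and its promoter is printed because the window held the letters of a MYB site several times over; MYBL1 is known as a regulator of the pachytene programme. The window runs from 250 bases before to 50 after the start site, at chr7:125349737-125350036 on the minus strand of GRCm38.p6 (RefSeq), and capitals mark the letters TAACNG on either strand. It held them in 5 places that form 4 separate runs, the last of which joins overlapping places on both strands. Such a match describes the letters and shows no binding.
4933440M02Rik: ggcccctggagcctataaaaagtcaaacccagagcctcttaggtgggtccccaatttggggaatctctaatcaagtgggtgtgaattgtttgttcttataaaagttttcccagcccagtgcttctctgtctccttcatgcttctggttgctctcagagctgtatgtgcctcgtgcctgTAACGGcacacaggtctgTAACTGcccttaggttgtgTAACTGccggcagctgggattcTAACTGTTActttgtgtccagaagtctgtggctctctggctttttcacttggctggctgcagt
Its level was 5.04, 5.14 and 4.89 in PWDxB6 and 7.07, 7.85 and 6.70 in B6xPWD, a difference of -2.18 (SE 0.475, limma adjusted p = 0.0183), and adjusted p was 0.112 without B6xPWD replicate 2. Among the other genotypes it ranged from 4.90 to 5.64 in PWD and from 6.90 to 7.63 in B6. In B6xBALB/C it had a lowest value of 5.55, a median of 8.18 and a highest value of 8.46. The PWDxB6 arrays thus overlapped those of PWD, and the B6xPWD arrays those of B6. 1700006A11Rik lay at 4.82 to 6.02 in PWD and 8.71 to 9.25 in B6, with 6.69 to 7.50 in BALB/CxB6 and, in B6xBALB/C, a median of 9.66 but 5.82 on replicate 6.

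**Figure D2:**
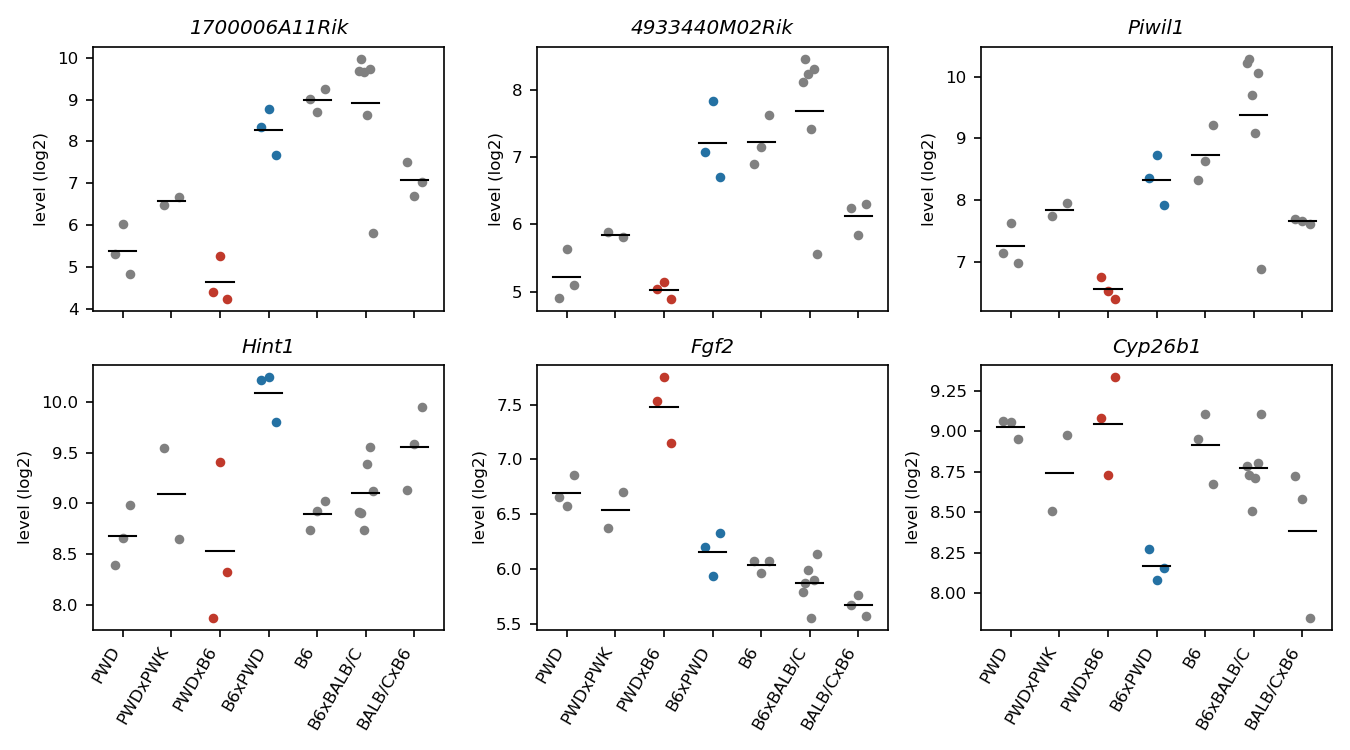
Log2 level of 6 genes on each of the 23 arrays by genotype, with PWDxB6 in red, B6xPWD in blue, other genotypes in grey and a black bar at the mean. 1700006A11Rik, 4933440M02Rik and Piwil1 are high in B6, in B6xPWD and in all but 1 B6xBALB/C array, Hint1 is highest on B6xPWD replicates 1 and 2, Fgf2 is highest in PWDxB6, and Cyp26b1 is low in B6xPWD and on 1 BALB/CxB6 array.

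Genes of the pachytene stage lay lower in PWDxB6 than in B6xPWD as a group, but few of them passed the test one by one. Among 32 genes of pachytene spermatocytes tested, none passed limma's adjusted threshold, 13 were lower at an unadjusted p under 0.05, and 30 had a negative difference, with a median of -0.36 against 0.03 for all autosomal genes. Among 14222 autosomal genes 43.9% had a negative difference. Piwil1, the PIWI protein that carries pachytene piRNAs, stood at 6.76, 6.54 and 6.40 in PWDxB6 and 8.35, 8.73 and 7.92 in B6xPWD. The groups did not overlap, and the difference of -1.77 had a standard error of 0.530 (limma adjusted p = 0.0684). Clgn, which encodes the chaperone calmegin of the endoplasmic reticulum of spermatocytes, differed by -1.31 (limma adjusted p = 0.0690). Under the alternative settings and array omissions, Piwil1 passed in 3 of 16 and Clgn in 4 of 16. The mean over the 32 genes, expressed relative to the mean of 23 arrays, was -0.43, -0.20 and -0.50 on the PWDxB6 arrays and 0.12, 0.45 and -0.04 on the B6xPWD arrays. By genotype this mean was as low in PWD (-0.43) as in PWDxB6 (-0.38), with -0.25 in BALB/CxB6 and -0.18 in PWDxPWK. It was 0.09 in B6, 0.18 in B6xPWD and 0.45 in B6xBALB/C. It spread widely within genotypes, reaching 0.85 on B6xBALB/C replicate 2 and -0.55 on replicate 6 of that cross. The SD of this mean was 0.54 in B6xBALB/C, against 0.16 in PWDxB6 and 0.25 in B6xPWD. The test pooled the spread of each gene over all genotypes. B6xPWD replicate 2 had the highest and PWDxB6 replicate 3 the lowest value among the 6 hybrid arrays, and their omission lowered the number of called genes most. The part of this spread in the falls of single genes was not tested.

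The piRNA pathway silences transposons and processes pachytene transcripts. Of 26 genes listed under this pathway and germ granules, 3 fell (11.5% against 2.55% of all autosomal genes). At an unadjusted p under 0.05, 15 were lower, and 25 had a negative difference (median -0.45). Asz1, a protein at the mitochondrial surface needed to make piRNAs, fell by 0.87 (SE 0.212, limma adjusted p = 0.0301), from 8.70, 8.86 and 8.55 in B6xPWD to 7.73, 8.24 and 7.53. Gtsf1, a zinc-finger partner of PIWI proteins, stood at 7.35, 8.05 and 7.39 in PWDxB6 against 8.49, 8.60 and 8.37, a difference of -0.89 (SE 0.230, limma adjusted p = 0.0408). The other listed gene that fell, Tex101, encodes a surface glycoprotein of germ cells and also stands on the acrosome list (-0.75, limma adjusted p = 0.0439). No group overlapped for these genes, and none of the 26 passed the test on omission of PWDxB6 replicate 1 or 3 or of B6xPWD replicate 1 or 2. All 8 tudor domain genes had a negative difference (median -0.52), with 4 at an unadjusted p under 0.05 and none past limma's adjusted threshold. By genotype the mean of the 26 genes was -0.31 in PWDxB6, -0.36 in PWD, 0.01 in B6 and 0.19 in B6xPWD. The tudor mean was -0.35 in PWDxB6, -0.36 in PWD, 0.07 in B6 and 0.16 in B6xPWD.

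The promoter of Asz1 is shown because it held the letters of an NRF1 site, GCGC and TGCGC with 1 base of any kind between them, in 2 places, and 48.3% of 29 promoter windows of piRNA pathway genes held them, against 8.67% of 14174 windows of all autosomal genes tested. NRF1 is a factor known for nuclear genes of mitochondria and for germ cell genes. The window lies at chr6:18109012-18109311 on the minus strand of GRCm38.p6 (RefSeq), with capitals marking these letters.
Asz1: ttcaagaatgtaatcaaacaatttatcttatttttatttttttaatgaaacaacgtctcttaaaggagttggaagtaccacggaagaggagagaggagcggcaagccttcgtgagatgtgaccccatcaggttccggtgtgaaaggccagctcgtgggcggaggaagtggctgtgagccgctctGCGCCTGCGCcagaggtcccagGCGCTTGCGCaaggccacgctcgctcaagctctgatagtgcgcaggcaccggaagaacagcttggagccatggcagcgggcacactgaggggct
The same letters stood in 33.3% of 21 windows of recombination genes and 13.5% of 52 windows of axoneme genes.

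Other groups that are switched on in spermatocytes showed the same lean. Among 53 genes of the axoneme and cilia none passed limma's adjusted threshold, with 10 lower and 1 higher at an unadjusted p under 0.05 and 46 negative differences (median -0.32). Dnah8, an axonemal dynein heavy chain, stood at 7.60, 7.46 and 7.30 in PWDxB6 and 8.57, 9.20 and 8.61 in B6xPWD (difference -1.34, SE 0.442, limma adjusted p = 0.0920). Hydin, a protein of the central pair of the axoneme, differed by -0.78 (limma adjusted p = 0.0649). Under the alternative settings and array omissions, Dnah8 passed in 3 of 16 and Hydin in 4 of 15. By genotype the mean of the axoneme list was -0.31 in PWDxB6, -0.31 in PWD and -0.31 in BALB/CxB6. It was 0.06 in B6xPWD, 0.08 in B6 and 0.44 in B6xBALB/C. Of 27 genes of the acrosome and sperm surface 2 fell, Tex101 and Ly6k (-0.79, limma adjusted p = 0.0328), a partner of Tex101, and 20 differences were negative (median -0.29). Of 31 testis paralogs of metabolic and ribosomal genes, which take over from widely expressed relatives during meiosis, 2 fell and the median was -0.58. Rpl39l, a paralog of the ribosomal protein gene Rpl39, stood at 6.54, 8.10 and 6.81 in PWDxB6 and 8.83, 9.20 and 8.34 in B6xPWD, a difference of -1.64 (SE 0.355, limma adjusted p = 0.0177). Cox8c, the testis form of a cytochrome c oxidase subunit, stood at 6.38, 7.29 and 6.64 against 8.78, 8.95 and 7.24 (difference -1.55, SE 0.395, limma adjusted p = 0.0370), with PWDxB6 replicate 2 just above B6xPWD replicate 3. Adjusted p was 0.108 for Rpl39l without PWDxB6 replicate 1, and 0.186 for Cox8c and 0.169 for Ly6k without B6xPWD replicate 2.

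**Figure D3:**
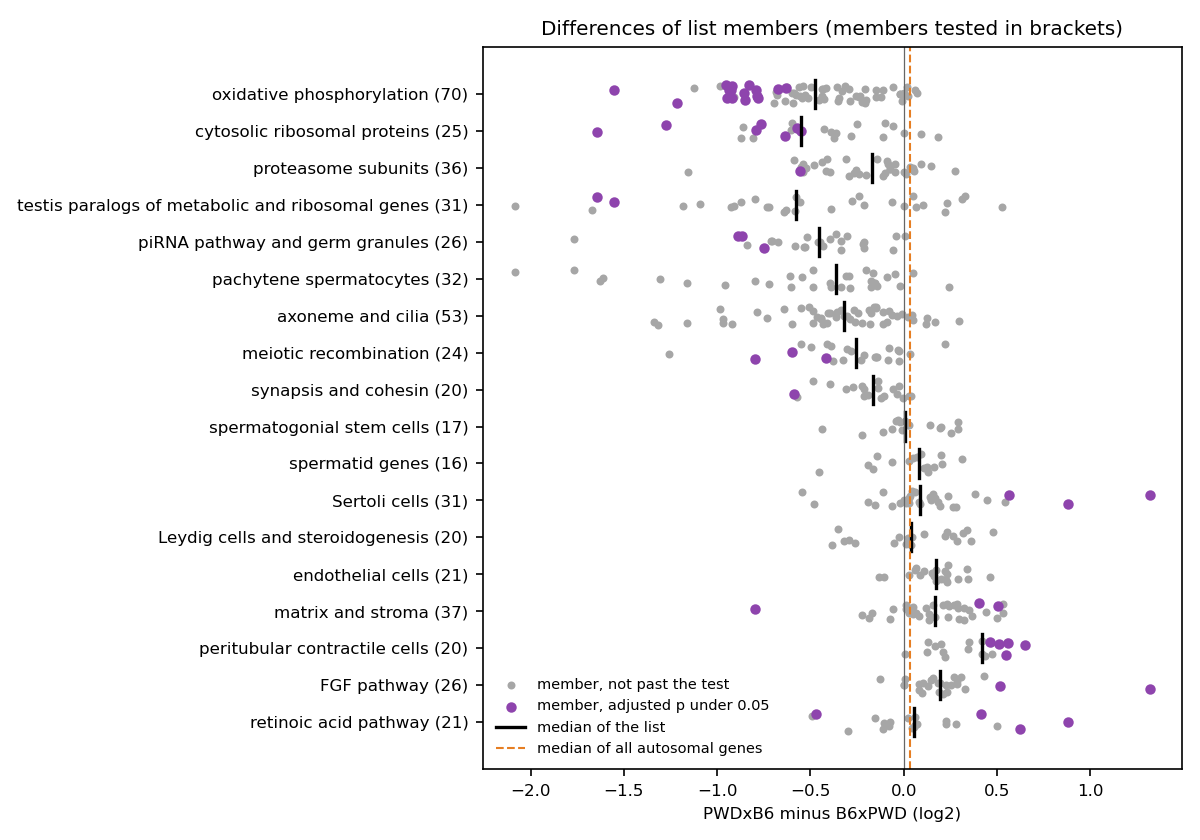
Difference PWDxB6 minus B6xPWD (log2, horizontal axis) of each autosomal member tested of 18 gene lists, with the number tested in brackets. Purple points passed limma's test at an adjusted p under 0.05, grey points did not, black bars are list medians and the dashed line is the median of all autosomal genes (0.03); oxidative phosphorylation has 16 purple points to the left and peritubular contractile cells 5 to the right.

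Genes of meiotic recombination differed by less. Of 24 tested, 3 fell (12.5%), 9 were lower at an unadjusted p under 0.05 and 22 had a negative difference (median -0.26). Ccnb1ip1, an E3 ligase that marks maturing crossovers, stood at 7.64, 7.57 and 7.35 in PWDxB6 and 8.12, 8.30 and 8.53 in B6xPWD, and fell by 0.80 (SE 0.164, limma adjusted p = 0.0129). Rec114, required to form meiotic double-strand breaks, fell by 0.60 (limma adjusted p = 0.0410) and Tex15, which acts in break repair and transposon silencing, by 0.42 (limma adjusted p = 0.0401). Without B6xPWD replicate 2 or PWDxB6 replicate 3 none of the 24 passed. Of 20 synapsis and cohesin genes 1 fell (5% against 2.55% of all autosomal genes). This was Meioc (-0.59, limma adjusted p = 0.0384), a protein that keeps cells in extended meiotic prophase, and its adjusted p was 0.173 without PWDxB6 replicate 3. The median of those 20 was -0.16. None of the 17 genes of spermatogonial stem cells, 16 spermatid genes, 36 genes of cell division and spindle or 23 sex-body silencing factors passed limma's adjusted threshold. At an unadjusted p under 0.05 they had 1 higher and 2 lower, 0 higher and 1 lower, 1 higher and 5 lower, and 1 higher and 3 lower, respectively. Zbtb16, a transcription factor of undifferentiated spermatogonia, stood at 8.90, 8.97 and 8.85 in PWDxB6 and 8.51, 8.63 and 8.70 in B6xPWD (difference 0.29, limma adjusted p = 0.207). Id4, a marker of stem cells, differed by -0.44 (limma adjusted p = 0.0848), and Meioc was the only one of 19 genes of differentiating spermatogonia and meiotic entry that passed.

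Genes of oxidative phosphorylation, the mitochondrial respiratory chain and ATP synthase, made up the largest block of genes lower in PWDxB6 than in B6xPWD. Of 70 nuclear-encoded autosomal members tested, 16 fell and none rose, which is 22.9% of the list, 43 were lower at an unadjusted p under 0.05, and 63 had a negative difference (median -0.48). Atp5k, a subunit of the membrane part of ATP synthase, stood at 7.92, 8.54 and 8.25 in PWDxB6 and 9.61, 9.68 and 9.07 in B6xPWD, a difference of -1.22 (SE 0.237, limma adjusted p = 0.00959). Ndufc2, a subunit of complex I, stood at 9.81, 10.12 and 9.72 against 10.94, 10.86 and 10.42 (difference -0.86, SE 0.160, limma adjusted p = 0.00721). Cox6c, a cytochrome c oxidase subunit, fell by 0.92 (limma adjusted p = 0.00770). Of the other complex I subunits, Ndufb2 fell by 0.85 (limma adjusted p = 0.0193), Ndufb8 by 0.79 (limma adjusted p = 0.0194) and Ndufb10 by 0.79 (limma adjusted p = 0.0213). The other called members were Cox8c, Cox5a, Cox7a2l, Uqcrh, Uqcr10, Atp5g3, Atp5e, Ndufa2, Atp5mpl and Cox4i1; of these, Cox4i1 fell by 0.63 (limma adjusted p = 0.0444) and Atp5mpl by 0.95 (limma adjusted p = 0.0327). The groups did not overlap for Atp5k, Ndufc2, Cox6c, Ndufb2, Ndufb8 or Ndufb10, and 27 of the 70 lay without overlap below, where 10.7% of all autosomal genes did. The count of 16 became 1, 28 and 1 when PWDxB6 replicates 1, 2 and 3 were left out in turn, and 5, 0 and 23 for B6xPWD replicates 1, 2 and 3, and the median stayed between -0.40 and -0.60 throughout.

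The window at the start of Atp5k is printed as an example of an oxidative phosphorylation promoter with the NRF1 letters, which stood in 24.6% of 61 windows of this list. It lies at chr5:108434350-108434649 on the minus strand of GRCm38.p6 (RefSeq), and the capitals mark 1 place.
Atp5k: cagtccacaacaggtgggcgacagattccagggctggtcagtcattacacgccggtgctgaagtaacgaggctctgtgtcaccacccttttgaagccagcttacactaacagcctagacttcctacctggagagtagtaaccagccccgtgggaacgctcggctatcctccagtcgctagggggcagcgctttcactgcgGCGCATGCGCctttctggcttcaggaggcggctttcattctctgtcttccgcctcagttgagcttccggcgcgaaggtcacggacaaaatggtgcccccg
The promoters of cytosolic ribosomal protein genes held them in 7.14% of 28 windows.

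Cytosolic ribosomal protein genes moved with the respiratory chain. Of 25 tested, 7 fell, 17 were lower at an unadjusted p under 0.05 and 22 had a negative difference (median -0.55). Rps21 of the small subunit stood at 6.97, 8.06 and 7.12 in PWDxB6 and 8.94, 8.95 and 8.10 in B6xPWD (difference -1.28, SE 0.281, limma adjusted p = 0.0193). Rps3a1 fell by 0.79 (limma adjusted p = 0.0301), Rpl34 by 0.76 (limma adjusted p = 0.0439), Rpl32l by 0.57 (limma adjusted p = 0.0193), Rpl26 by 0.55 (limma adjusted p = 0.0186), and Rps15a fell by 0.63 (limma adjusted p = 0.0454). Rpl39l is also on this list. Ribosomal protein genes have many processed pseudogenes, and probes may be shared with them, so single members are uncertain. The 7 calls became 0 on omission of PWDxB6 replicate 1 or 3 or of B6xPWD replicate 2, and 4 and 11 on omission of B6xPWD replicates 1 and 3. Of 36 proteasome subunits 1 fell (2.78% against 2.55% of all autosomal genes), with 14 lower at an unadjusted p under 0.05 and a median of -0.17. The subunit that fell, Psmd6 (-0.56, limma adjusted p = 0.0207), did not pass without PWDxB6 replicate 3 (adjusted p = 0.128).

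Both groups of genes varied strongly between arrays of 1 genotype. The mean of the 70 oxidative phosphorylation genes relative to all arrays was -0.27, 0.11 and -0.15 on the PWDxB6 arrays and 0.52, 0.53 and 0.10 on the B6xPWD arrays, so that PWDxB6 replicate 2 and B6xPWD replicate 3 lay side by side. The ribosomal genes gave -0.21, 0.11 and -0.18 against 0.53, 0.50 and 0.21. By genotype the oxidative phosphorylation mean was -0.10 in PWDxB6, -0.17 in PWD, -0.19 in B6 and 0.38 in B6xPWD. It was -0.01 in PWDxPWK, -0.03 in B6xBALB/C and 0.13 in BALB/CxB6. For ribosomal genes the mean was -0.09 in PWDxB6, -0.16 in PWD, -0.22 in B6 and 0.41 in B6xPWD. In both groups of genes PWDxB6 thus lay near the parental strains and B6xPWD above them. Outside the hybrids, BALB/CxB6 replicate 3 was as high as B6xPWD replicates 1 and 2, at 0.47 for oxidative phosphorylation and 0.49 for ribosomal genes. The pachytene mean on that array was -0.22, so these genes and the pachytene genes did not move together there. The labels name no batch.

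**Figure D4:**
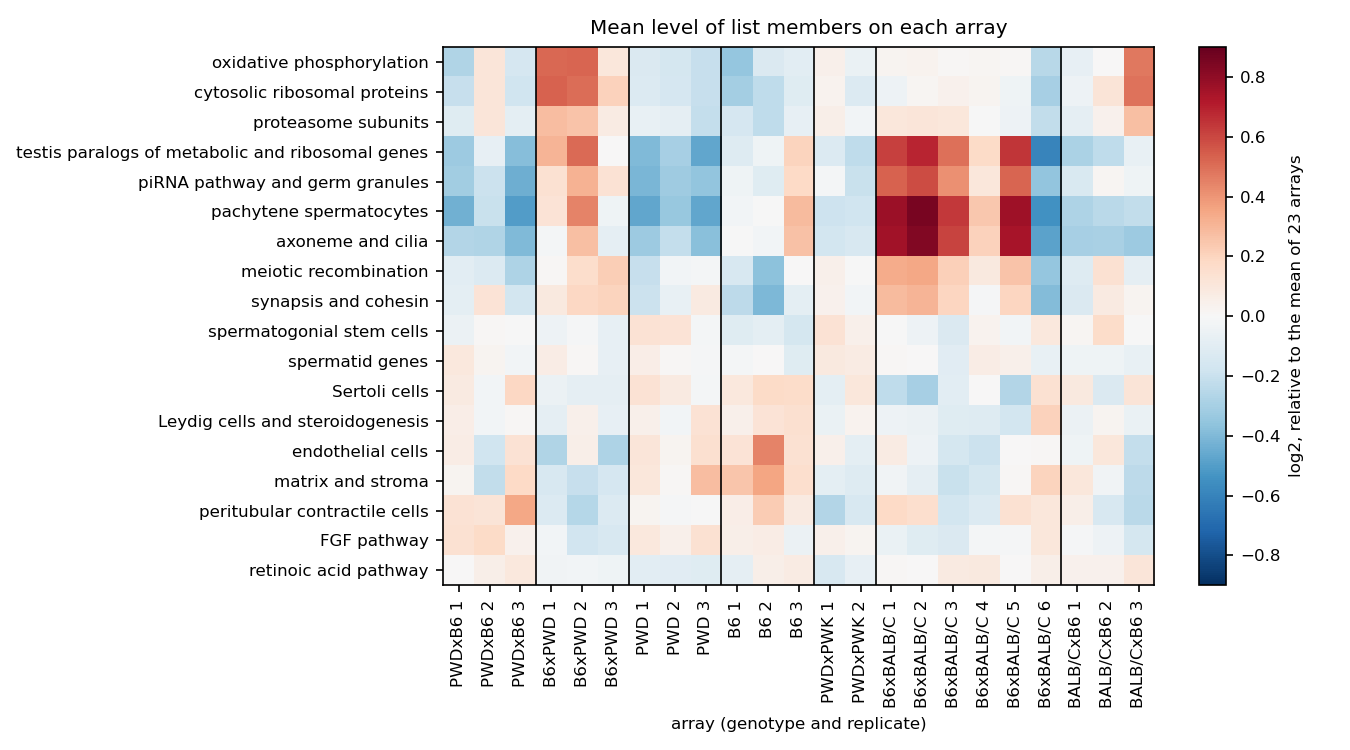
Mean log2 level of the members of 18 gene lists (rows) on each of the 23 arrays (columns, black lines between genotypes), relative to the mean of all arrays, from blue (low) to red (high). Oxidative phosphorylation and ribosomal genes are high on B6xPWD replicates 1 and 2 and BALB/CxB6 replicate 3, while pachytene, piRNA and axoneme genes are high on B6xBALB/C replicates 1, 2, 3 and 5 and low on replicate 6.

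Several of the largest single falls shared with these genes the highest PWDxB6 array and the lowest B6xPWD array. Hint1, which encodes a nucleotide-hydrolysing protein of the histidine triad family, stood at 7.88, 9.40 and 8.32 in PWDxB6 and 10.22, 10.24 and 9.81 in B6xPWD, a difference of -1.55 (SE 0.294, limma adjusted p = 0.00770). Rnf7, the RING subunit of a cullin ubiquitin ligase, stood at 7.02, 7.64 and 7.25 against 9.13, 9.17 and 8.20 (difference -1.53, SE 0.339, limma adjusted p = 0.0193). Cd63, a tetraspanin of late endosomes, stood at 7.05, 7.84 and 7.05 against 9.14, 8.98 and 8.31 (difference -1.50, SE 0.299, limma adjusted p = 0.0108). In each, PWDxB6 replicate 2 was the highest array of its group and B6xPWD replicate 3 the lowest. The likeness did not extend to the parental strains for 2 of them. Rnf7 lay at 5.88 to 6.71 in PWD and 8.31 to 8.84 in B6, and Cd63 at 6.83 to 7.68 and 7.70 to 8.48. Hint1 overlapped between them, at 8.40 to 8.98 in PWD and 8.74 to 9.02 in B6. Adjusted p rose to 0.0640 for Hint1 without PWDxB6 replicate 1, 0.112 for Rnf7 without B6xPWD replicate 2 and 0.0784 for Cd63 without PWDxB6 replicate 3.

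Contractile genes of peritubular cells, the muscle-like cells around the seminiferous tubules, were the group with the largest share of rises. Of 20 tested, 5 rose and none fell, 13 were higher at an unadjusted p under 0.05, and all 20 had a positive difference (median 0.42), where 56.1% of all autosomal genes did. Tpm1, a tropomyosin gene, stood at 9.39, 9.48 and 9.68 in PWDxB6 and 8.88, 8.64 and 9.10 in B6xPWD (difference 0.65, SE 0.166, limma adjusted p = 0.0373). Cnn1, calponin of smooth muscle, stood at 7.48, 7.93 and 7.90 against 7.22, 7.17 and 7.24 (difference 0.56, SE 0.153, limma adjusted p = 0.0479). Des, the intermediate filament protein desmin, rose by 0.55 (limma adjusted p = 0.0327), Smtn, smoothelin, by 0.51 (limma adjusted p = 0.0215) and Actn1, an actinin, by 0.46 (limma adjusted p = 0.0357). The groups did not overlap for these 5 genes, and 12 of the 20 lay above without overlap, against 13.1% of all autosomal genes. None of the 20 passed on omission of PWDxB6 replicate 3 (median 0.33) or B6xPWD replicate 2 (median 0.35), and 1 passed on omission of PWDxB6 replicate 1 (median 0.45). The mean of the list relative to all arrays was 0.13, 0.11 and 0.35 on the PWDxB6 arrays and -0.12, -0.26 and -0.12 on the B6xPWD arrays.

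Of 37 matrix and stroma genes, Col6a2 (0.51, limma adjusted p = 0.0362) and Col4a2 (0.40, limma adjusted p = 0.0373), collagens of the pericellular matrix and the basement membrane, rose. Mgp, which encodes matrix Gla protein, fell by 0.80 (limma adjusted p = 0.0195), from 8.20, 8.30 and 7.49 in B6xPWD to 6.88, 7.39 and 7.33. The median of the 37 was 0.17 with 31 positive differences, and none passed on omission of PWDxB6 replicate 1 or 3 or of B6xPWD replicate 2. None of 21 endothelial genes passed limma's adjusted threshold, 2 were higher at an unadjusted p under 0.05 and 19 differences were positive (median 0.18). Of 31 Sertoli cell genes 3 rose, Fgf2, Cyp26b1 and Espn, an actin-bundling protein of Sertoli cell junctions (0.56, limma adjusted p = 0.0410, and 0.154 without PWDxB6 replicate 3). Their median was 0.09 with 24 positive differences, and 19 were positive with arrays centred on all genes. Of the 20 Leydig cell genes none passed limma's adjusted threshold, with 2 higher and 3 lower at an unadjusted p under 0.05. Of 17 genes of macrophages and MHC class II only H2-Ab1 passed, with a fall of 0.51 (limma adjusted p = 0.0497), and its call was lost in each of 6 single-array omissions. Among 3 red blood cell genes none reached an unadjusted p under 0.05. The part of somatic cell content in the germ cell differences was not tested.

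Fgf2, basic fibroblast growth factor, a factor that sustains spermatogonial stem cells in culture, had the smallest p-value of the rises. It stood at 7.53, 7.75 and 7.15 in PWDxB6 and 6.20, 5.94 and 6.33 in B6xPWD. The lowest PWDxB6 array exceeded the highest B6xPWD array by more than the range of either group, and the difference was 1.32 (SE 0.148, limma adjusted p = 2.36e-05), or 2.50-fold. The PWDxB6 level also lay above every array of PWD (6.57 to 6.86), B6 (5.96 to 6.07), B6xBALB/C (highest 6.14) and BALB/CxB6 (5.58 to 5.77), while the B6xPWD arrays fell among those of B6 and B6xBALB/C or just above them. Adjusted p was at most 0.000493 when any 1 of the 6 hybrid arrays was left out. The window at its start, chr3:37348403-37348702 on the plus strand of GRCm38.p6 (RefSeq), is printed as the promoter of the most certain rise. Capitals mark the letters GGGCGG of an SP/KLF site on either strand, which stood in 63.1% of 176 windows of genes called higher and 58.9% of all 14174 windows.
Fgf2: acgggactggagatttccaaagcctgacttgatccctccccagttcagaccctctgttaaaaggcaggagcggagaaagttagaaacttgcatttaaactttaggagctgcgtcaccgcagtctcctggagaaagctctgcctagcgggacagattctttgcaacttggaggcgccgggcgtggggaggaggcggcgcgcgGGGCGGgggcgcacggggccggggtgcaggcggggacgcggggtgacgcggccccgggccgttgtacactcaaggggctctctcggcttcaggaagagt
Fgfr1, a receptor for this factor, rose by 0.52 (SE 0.136, limma adjusted p = 0.0415), and by less than the test required without PWDxB6 replicate 3 (adjusted p = 0.171). Of 26 FGF pathway genes 2 rose and none fell, 6 were higher at an unadjusted p under 0.05, and 25 differences were positive (median 0.19).

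The retinoic acid pathway, whose signal starts meiosis, changed in members of opposite roles. Cyp26b1, which degrades retinoic acid, stood at 9.08, 8.73 and 9.33 in PWDxB6 and 8.27, 8.08 and 8.15 in B6xPWD, and rose by 0.88 (SE 0.189, limma adjusted p = 0.0172). The B6xPWD arrays lay below those of PWD (8.96 to 9.06), B6 (8.68 to 9.11), PWDxPWK (8.51 to 8.98) and B6xBALB/C (8.51 to 9.11), but BALB/CxB6 ranged from 7.85 to 8.72 and its replicate 3 was lower still. The receptors Rara (8.30, 8.17 and 8.35 against 7.72, 7.59 and 7.64) and Rxra (7.17, 7.15 and 7.19 against 6.76, 6.74 and 6.77) rose by 0.62 (limma adjusted p = 0.0227) and 0.41 (limma adjusted p = 0.0195). Aldh1a2, which makes retinoic acid, fell by 0.47 (limma adjusted p = 0.0439). Of 21 genes of the pathway, 3 rose and 1 fell, and the median was 0.06. None of the 4 calls was made on omission of PWDxB6 replicate 1 or 3 or of B6xPWD replicate 2.

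Among 36 genes of TGF-beta and activin signalling, the ligand rose and a receptor fell. In all, 3 were called, 8.33% against 2.55% of all autosomal genes. Tgfb1 stood at 8.10, 8.11 and 8.34 in PWDxB6 and 7.38, 7.26 and 7.27 in B6xPWD (difference 0.88, SE 0.165, limma adjusted p = 0.00740). Its receptor gene Tgfbr1 fell by 0.47 (limma adjusted p = 0.0357) and Id2, an inhibitor of helix-loop-helix factors, by 0.66 (limma adjusted p = 0.0282). Tgfb1 lost its call only without PWDxB6 replicate 3 (limma adjusted p = 0.0586), Tgfbr1 in 5 and Id2 in 4 of the 6 omissions. The B6xPWD arrays lay below every other array of the series for Tgfb1, and the PWDxB6 arrays lay below those of B6 (8.41 to 8.67). None of 29 Notch pathway genes passed limma's adjusted threshold, with 3 higher and 3 lower at an unadjusted p under 0.05. Of 25 immediate-early and dissociation stress genes 1 fell (4% against 2.55% of all autosomal genes), Ier3 (-1.16, SE 0.283, limma adjusted p = 0.0301). Its level went from 7.63, 8.47 and 7.02 in B6xPWD to 6.14, 7.23 and 6.27 in PWDxB6, with an overlap of PWDxB6 replicate 2 and B6xPWD replicate 3. Ier3 did not pass without B6xPWD replicate 2 (limma adjusted p = 0.184).

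The other large rises belonged to no single group. Defb15, a beta-defensin gene, stood at 7.94, 9.24 and 7.86 in PWDxB6 and 6.73, 7.16 and 7.19 in B6xPWD (difference 1.32, SE 0.262, limma adjusted p = 0.0103), and 11 other beta-defensin genes tested did not pass. Map3k7cl stood at 7.39, 8.12 and 7.05 against 6.53, 6.49 and 6.50, and rose by 1.01 (limma adjusted p = 0.0129). Slc16a14, of the monocarboxylate transporter family, stood at 7.03, 7.25 and 6.98 against 6.23, 5.89 and 6.34, and rose by 0.93 (limma adjusted p = 0.00207). It was 1 of 286 solute carrier genes tested, of which 4 rose and 1 fell, a share of 1.75% against 2.55% of all autosomal genes. The other rises were in Slc13a4, a sulfate transporter gene (0.54, limma adjusted p = 0.0370), Slc15a5 (0.45, limma adjusted p = 0.0428) and Slc4a4, a bicarbonate transporter gene (0.45, limma adjusted p = 0.0385), and Slc37a2 fell by 0.52 (limma adjusted p = 0.0490). These 4 calls, and that of Cyp2u1 (-0.41, limma adjusted p = 0.0374), were each lost in 4 or 5 of 6 single-array omissions. Cyp2d10, a cytochrome P450, stood at 6.01, 6.04 and 5.91 against 5.36, 5.03 and 4.90 (difference 0.89, SE 0.128, limma adjusted p = 0.000773). The B6xPWD means of Cyp2d10, Slc4a4 and Mir26a-1 lay below the dim limit, so the sizes of their rises are uncertain. Msi1, which encodes the RNA-binding protein Musashi-1, rose by 0.72 (limma adjusted p = 0.00770), from 8.67, 8.70 and 8.72 to 9.45, 9.25 and 9.55. Mark4, a kinase that regulates microtubule binding, rose by 0.74 (limma adjusted p = 0.0193), Pdlim1, an actin-associated PDZ and LIM domain protein, by 0.72 (limma adjusted p = 0.0332) and Anxa6, an annexin, by 0.70 (limma adjusted p = 0.00947). Cmip rose by 0.71 (limma adjusted p = 0.0195), St8sia2, a polysialic acid synthase, by 0.70 (limma adjusted p = 0.0244) and E030030I06Rik by 0.76 (limma adjusted p = 0.0439). Without B6xPWD replicate 2 adjusted p was 0.0622 for Map3k7cl, 0.167 for Pdlim1 and 0.0748 for Anxa6, and without PWDxB6 replicate 3 it was 0.0609 for Msi1, 0.113 for Mark4, 0.120 for Cmip and 0.153 for St8sia2. E030030I06Rik had 0.207 without PWDxB6 replicate 1. For Msi1, Mark4, Cmip and St8sia2 the B6xPWD arrays lay below every other array of the series. For Defb15 and Cyp2d10 it was the PWDxB6 arrays that lay apart, above every other array.

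Among 106 microRNA probe sets tested 3 passed, or 2.83% against 2.55% of all autosomal genes. At an unadjusted p under 0.05, 21 were higher and 1 lower, so that 19.8% were higher against 11.8% of all autosomal genes. The lower quartile of all probe set values was 4.96, 4.83 and 4.83 on the PWDxB6 arrays and 4.85, 4.79 and 4.72 on the B6xPWD arrays. With arrays centred on all genes the autosomal genes called higher went from 174 to 92. The microRNA probe sets were not counted under that centring. Such a probe set reads RNA of the locus, and not necessarily the mature form. Mir26a-1 stood at 5.80, 5.65 and 5.69 in PWDxB6 and 5.17, 4.94 and 5.03 in B6xPWD, near the dim limit, and rose by 0.66 (SE 0.147, limma adjusted p = 0.0193). Mir668 of the imprinted cluster on chromosome 12 stood at 6.31, 5.99 and 6.10 against 5.55, 5.71 and 5.38, and rose by 0.58 (SE 0.124, limma adjusted p = 0.0162). Mir297b fell by 0.67 (limma adjusted p = 0.0471), from 5.39, 5.96 and 5.65 to 4.95, 5.00 and 5.04. Its PWDxB6 levels lay below the dim limit, so the size of this fall is uncertain. The mature products of the loci that rose are given from RefSeq (GRCm38.p6), with the seed, bases 2 to 8, in capitals, since the seed decides which transcripts a microRNA pairs with; the 4 seeds all differ.
mmu-miR-26a-5p: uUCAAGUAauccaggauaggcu
mmu-miR-26a-1-3p: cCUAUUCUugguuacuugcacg
mmu-miR-668-5p: gUAAGUGUgccucgggugagcaug
mmu-miR-668-3p: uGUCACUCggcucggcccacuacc

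Imprinted genes, which are read from the copy of 1 parent, differed in the level of a few members. Nnat, known to be expressed from the paternal copy, stood at 6.38, 6.59 and 6.27 in PWDxB6 and 7.43, 7.28 and 7.28 in B6xPWD, and fell by 0.92 (SE 0.125, limma adjusted p = 0.000343). B6 lay at 6.13 to 6.31 and PWD at 7.40 to 7.58, so the PWDxB6 arrays lay nearer to B6, the strain of their fathers, and the B6xPWD arrays nearer to PWD. Adjusted p for Nnat was at most 0.00605 when any 1 of the 6 arrays was left out. Commd1 fell by 0.58 (limma adjusted p = 0.00985) and Mcts2, a retrogene expressed from the paternal copy, by 0.53 (limma adjusted p = 0.0439), from 8.36, 8.55 and 8.43 to 7.75, 8.14 and 7.88. Adjusted p was 0.0729 for Commd1 without B6xPWD replicate 2 and 0.193 for Mcts2 without PWDxB6 replicate 1. Unlike Nnat, both genes stood higher on every B6xPWD array than on any array of either parental strain. For Commd1 the B6xPWD arrays lay at 6.61 to 6.82, PWD at 6.12 to 6.34 and B6 at 6.41 to 6.48. For Mcts2 PWD lay at 8.04 to 8.20 and B6 at 7.65 to 8.06. Of 34 imprinted genes tested, none rose and 3 fell (8.82% against 2.55% of all autosomal genes), and the median was 0.07.

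Of 26 genes of apoptosis and DNA damage, the pro-apoptotic Bak1 rose by 0.57 (limma adjusted p = 0.0410) and Trp53inp1, a stress-induced partner of p53, fell by 0.53 (limma adjusted p = 0.0195). Both calls were lost in 4 of 6 single-array omissions, with adjusted p of 0.157 for Bak1 without B6xPWD replicate 2 and 0.127 for Trp53inp1 without PWDxB6 replicate 3. None of 24 interferon response genes passed limma's adjusted threshold, with 1 higher and 3 lower at an unadjusted p under 0.05. Among 47 tripartite motif genes Trim13 (-0.77, limma adjusted p = 0.0129) and Trim59 (-0.58, limma adjusted p = 0.0410) fell, a share of 4.26% against 2.55% of all autosomal genes. Among 16 genes with Tex symbols Tex30 fell by 0.86 (limma adjusted p = 0.0213), beside Tex15 and Tex101. Trim13 (limma adjusted p = 0.0926) and Trim59 (0.172) did not pass without PWDxB6 replicate 3, nor did Tex30 without PWDxB6 replicate 1 (0.124). None of 19 genes with Spata symbols or 19 glutathione S-transferase genes passed limma's adjusted threshold, with 2 higher and 1 lower, and 1 higher and 4 lower, at an unadjusted p under 0.05. Of 8 control genes none passed, and 1, Polr2a, was higher at an unadjusted p under 0.05.

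The reciprocal difference within a subspecies put these values in proportion. Between BALB/CxB6 and B6xBALB/C 56 autosomal genes passed the test (0.394%), 8 higher (0.0563%) and 48 lower (0.338%), and 1972 had an unadjusted p under 0.05 (13.9%). That count was 968 without B6xBALB/C replicate 6 and 0 without BALB/CxB6 replicate 3. Of the 188 genes lower in PWDxB6, 146 had a positive difference in the control cross and 42 a negative one. Of the 174 genes higher in PWDxB6, 114 had a negative and 60 a positive difference there. Of the 13860 genes not called, 7893 were positive and 5967 negative in that cross. Genes called in both crosses were 2, Aym1 (-1.50 and -1.40) and Nfyc (-0.64 and 0.48), the latter in opposite directions. Nfyc, a subunit of a CCAAT-binding factor, was singled out after its values were seen.

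A direct test of the difference between the 2 reciprocal differences passed for 338 autosomal genes (2.38%), with 228 more negative (1.6%) and 110 more positive (0.773%) in the hybrids, among them 113 of the 188 lower and 63 of the 174 higher genes. The hybrid difference is a term of this test, so genes chosen for a large one pass it more readily and these counts are a description. With 37 such genes left without BALB/CxB6 replicate 3, the total rested in part on that array. Neither 1700006A11Rik, 4933440M02Rik nor Piwil1 passed it: 1700006A11Rik differed by -3.63 in the hybrids and -1.84 in the control cross (difference of differences -1.79, SE 0.881, limma adjusted p = 0.275), and 4933440M02Rik by -2.18 and -1.56 (-0.62, limma adjusted p = 0.626). Piwil1 differed by -1.77 and -1.71 (-0.06, SE 0.701, limma adjusted p = 0.975). The list medians for pachytene genes were -0.36 and -0.63, and for axoneme genes -0.32 and -0.86, both negative in either cross. The oxidative phosphorylation list had medians of -0.48 and 0.17, and 19 of its 70 genes passed the direct test, as did 7 of 25 ribosomal genes (medians -0.55 and 0.22) and 7 of 20 contractile genes (medians 0.42 and -0.15). Hint1 differed by -1.55 and 0.45 (-2.00, SE 0.390, limma adjusted p = 0.0108) and Cd63 by -1.50 and 0.95 (-2.45, SE 0.396, limma adjusted p = 0.00309). Fgf2 differed by 1.32 and -0.20 (1.52, SE 0.195, limma adjusted p = 0.000517). Nnat differed by -0.92 and 0.20 (-1.11, SE 0.165, limma adjusted p = 0.00156).

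**Figure D5:**
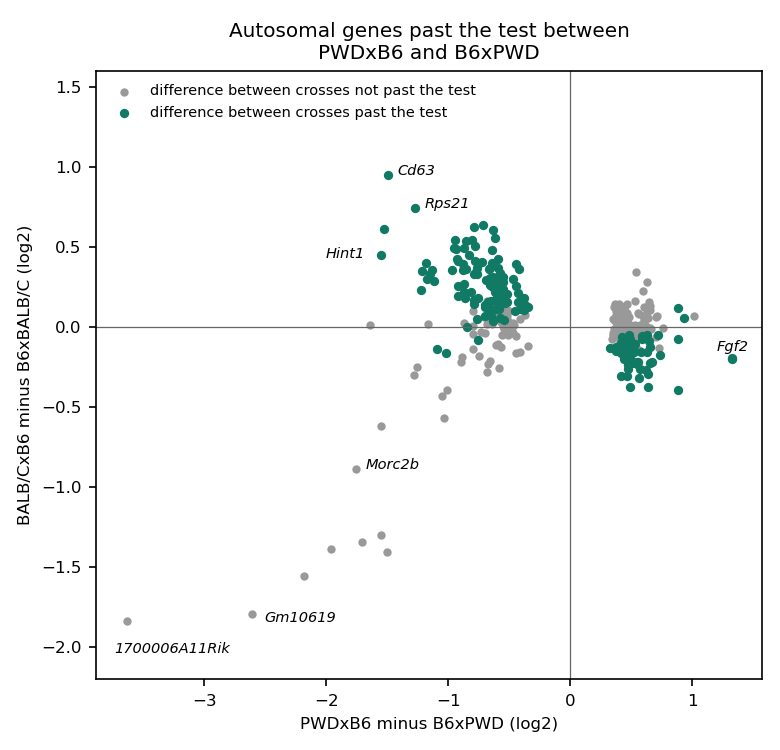
Difference PWDxB6 minus B6xPWD (horizontal, log2) against BALB/CxB6 minus B6xBALB/C (vertical, log2) for the 362 autosomal genes past limma's test in the first comparison. Green points, 176 in all, also passed the direct test between the crosses; 1700006A11Rik (-3.63 and -1.84) lies low in both crosses, while Cd63 (-1.50 and 0.95) lies on opposite sides.

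Promoter letters differed between the directions as a description, with no test. RefSeq windows of 300 bases (GRCm38.p6) were at hand for 11219 of the 14222 genes, among them 147 of those called lower and 131 of those called higher, with 181 and 176 windows. The NRF1 letters stood in 16% of windows of lower genes and 2.27% of windows of higher genes, against 8.67% of all windows. The ETS letters CCGGAAGT stood in 9.94% and 1.14%, against 6.82%, and the cyclic AMP response element TGACGTCA in 6.08% and 0.568%, against 2.86%. The MYB letters TAACNG stood in 21.5% and 12.5%, against 19.2%, but in 48.1% of 52 axoneme windows and 30% of 30 pachytene windows. The RFX half-site GTTGCC, a mark of cilia genes, was at 13.8% and 13.6% against 12.7%, and at 46.2% in axoneme windows. CArG boxes, by which serum response factor binds contractile genes, stood in 11.8% of 17 windows of the contractile list and 1.27% of all. Each motif was searched on both strands, without regard to overlap with the others. The median GC content was 59.3% for windows of lower genes and 62.8% for those of higher genes, against 60.3% for all.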

How the data were processed

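Testis RNA of 23 arrays was compared as log2 values, which the authors deposited in 1 table of 25690 probe sets; per the labels' protocols, RNA was isolated with a column kit and labelled for the array, and per the series design text 1 PWDxPWK array was left out by the authors on quality graphs. The labels and the design text name different labelling kits, and how the values were background-corrected and normalized, and with which software, is not given in the sources used here. Of the probe sets, 20777 carried 1 gene symbol, 232 several and 4681 none. Only the first were used, and 20696 of them were matched by Entrez ID to RefSeq names and chromosomes. For 564 genes with several probe sets the one with the highest mean was taken. The 25% of genes with the lowest mean over all arrays, under a log2 level of 5.12, were left out.

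All 23 arrays entered 1 fit with a mean for each of 7 genotypes in limma 3.58.1 (lmFit and eBayes, 16 residual degrees of freedom) in R 4.3.3, and p-values were adjusted by Benjamini-Hochberg over 14746 genes. The script was tested on simulated data, where the PWDxB6 against B6xPWD comparison recovered 52% of 100 genes shifted by 0.5 log2 units, recovered 97% of 100 genes shifted by 1, and had 5.70% false calls. The simulated noise was independent between genes, without the shared effects of single arrays seen in the data. These rates check the script and need not hold for the real arrays. Named genes are the 15 largest rises and 15 largest falls past the test without overlap of the arrays, and, from each of 40 lists (1590 members named, 1496 on the array, 1195 tested on autosomes), every called member up to 6, or otherwise the 2 with the smallest p. This gave 110 genes, 80 of them called. Further called members of longer lists are named in the text. The members and lists were chosen with earlier results of these data known. A list mean on an array is the mean of its tested members less their mean over 23 arrays. Alternatives were the dim filter, normalization, centring, probe set rule, variance model, array weights, the arrays fitted, a replicate block (without B6xBALB/C replicates 4 to 6) and the omission of single arrays. Promoter and microRNA sequences are from RefSeq. Figures were drawn with matplotlib 3.10.9 in Python 3.11.15.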

Additional observations from a re-analysis of the deposited data

Results flagged for a closer look

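Among 70 genes and list means examined for a value far from the rest of the 6 B6xBALB/C arrays, 13 had one by Dixon's test, where chance gives about 1 in 20. In 12 of the 13 that array was B6xBALB/C replicate 6. It stood at 5.82 for 1700006A11Rik, where the nearest other array was at 8.63, at 5.55 (nearest 7.42) for 4933440M02Rik, at 8.15 (nearest 9.73) for Gm10505, at 6.39 (nearest 8.01) for Smpd5 and at 6.18 (nearest 7.36) for Aym1. It was high for Anxa6, at 9.79 (nearest 9.42). Its list means were -0.345 for meiotic recombination (nearest 0.0899), -0.172 for cell division and spindle (nearest -0.00324), -0.168 for genes with Tex symbols (nearest 0.0128), -0.298 for ribosomal proteins (nearest -0.0444) and -0.250 for oxidative phosphorylation (nearest 0.00821), and it was high for Leydig cell genes, at 0.204 (nearest -0.0445). B6xBALB/C replicate 5 was low for apoptosis and DNA damage genes, at -0.0773 (nearest -0.0355).

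Among the 30 genes with the largest reciprocal differences, limma's test of the hybrid difference against that of BALB/CxB6 and B6xBALB/C passed for 13. These genes were chosen for their hybrid difference, which is a term of that test, so the count is a description. The differences of differences were positive for Fgf2 (1.52, adjusted p = 0.000517), Defb15 (1.51, 0.0223), Cyp26b1 (1.27, 0.0112), Tgfb1 (0.95, 0.0223), Mark4 (0.91, 0.0258), Mir26a-1 (0.88, 0.0175), Slc16a14 (0.87, 0.0186), Msi1 (0.76, 0.0255) and Cyp2d10 (0.76, 0.0184). They were negative for Cd63 (-2.45, limma adjusted p = 0.00309), Rnf7 (-2.14, 0.0154), Rps21 (-2.02, 0.00733) and Hint1 (-2.00, 0.0108).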

How the results depend on the processing

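None of the 80 named genes past the test changed direction under the alternatives run. Of the other 30, Slc4a1, a red blood cell gene, did, from 0.16 to -0.0641 with array weights. Some of these 30 passed in a few alternatives, at most 7 of 16 for the cell division gene Birc5. Of the 80 genes, 6 kept the call in every alternative: Fgf2, Slc16a14, Cyp2d10, 1700006A11Rik, Tctex1d2 and Nnat. With single-array omissions set aside 30 kept it, these 6 included, and the causes of the losses were not tested. The 362 calls between the hybrids became 4425 with array weights and 173 with only the groups compared. They became 972 with a replicate block, which was fitted without B6xBALB/C replicates 4 to 6. They stayed within 1.5 times under the other filters, scalings and variance models (247 to 384, of which the 384 came from a centring on all genes added after seeing the data). Leaving out single arrays gave 32 to 567. The 56 calls of the control cross became 17 with a stricter dim filter, 18 with quantile normalization, 114 with centring on the median autosomal gene, 20 with trended and robust variances, 1538 with array weights and 1262 with the block. They became 0 with only the groups compared in limma (1688 at an unadjusted p under 0.05), 1233 with B6xBALB/C replicates 1 to 3 and 0 with replicates 4 to 6 (1262 unadjusted). Leaving out single arrays gave 0 to 968. The 338 differences between crosses became 1872 with array weights, 822 with the block, 142 with only the groups compared, 766 with B6xBALB/C replicates 1 to 3 and 166 with replicates 4 to 6, and 37 to 513 on omission of single arrays. For the control cross and the difference between crosses, the block counts lay near those with B6xBALB/C replicates 1 to 3 and no block. The part of the block itself was not tested. Whether replicate numbers pair the hybrids cannot be settled with 3 arrays per group. Same-numbered deviations correlated at 0.03, 0.22 and 0.13, and those of unlike number at -0.16 to 0.07. PWDxB6 replicates 2 and 3 correlated best with the B6xPWD array of their own number, but PWDxB6 replicate 1 with B6xPWD replicate 3 (0.07).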
